A study of Bos taurus with 16 samples.

Results

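DIO2 and TTR, a gene that activates thyroid hormone and a gene that carries it, were described in the prefrontal cortex (PFC) of 16 non-castrated male bovines. They are 2 of the 27607 genes measured. Both were taken from the genes listed by the study as different between the breeds, with the values of these animals known, so the difference between breeds is given for them as a description and without a test. DIO2 is identified in the files as ENSBTAG00000001605, and TTR as ENSBTAG00000010991 by its chromosome, start and end.

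The study contrasted 8 bulls of the Lidia breed, selected over generations for agonistic and fighting behavior, with 8 of the tame Wagyu breed, selected for meat quality and docility. The Lidia bulls came from 2 farms, La Quinta (4 bulls) and Montealto (4 bulls), and were sampled after a public bullfight. The Wagyu bulls came from 1 other farm and were sampled at a slaughterhouse. All were 3 years old except Montealto bull 4, which was 4 years old. The labels name no drug treatment and no engineered allele. Breed, farm of origin, diet, the last hours of handling and the place of sampling changed together and cannot be told apart. A single piece of PFC tissue per animal was sequenced as polyadenylated RNA.

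Thyroxine, the main product of the thyroid, is a prohormone with little activity of its own. In the brain the type 2 iodothyronine deiodinase, encoded by DIO2 and made mainly by astrocytes and tanycytes, removes an iodine atom from it to give triiodothyronine, which binds nuclear receptors in neighbouring neurons. Transthyretin, encoded by TTR, binds thyroxine and the retinol-binding protein in blood and cerebrospinal fluid, and within the brain it is made above all by the epithelium of the choroid plexus.

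Expression is given in FPKM, the number of fragments relative to exon length and to the mapped fragments of the library, summed over the transcripts of a gene. Values per animal were divided by a scaling factor, the median of the ratios of an animal's genes to their geometric mean over the 16 animals, and are called rescaled FPKM. The files held an estimated 7671280 to 37002100 mapped fragments per animal. Wagyu bull 4 (7671280 fragments, factor 2.19) and La Quinta bull 4 (13680300 fragments, factor 1.77) had the fewest fragments and the largest factors, and the factors of the other 14 animals lay between 0.612 and 1.12. The main differences of DIO2 and TTR are given with and without those 2 bulls.

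DIO2 lies on the minus strand of chromosome 10, from 91495432 to 91504569 on the ARS-UCD 1.2 assembly. Its single annotated transcript, ENSBTAT00000002107, has 2 exons of 232 and 790 bases, so that 1022 of its 9138 bases are exonic. No other annotated gene overlapped it, and the nearest lay 68707 bases away. TTR lies on the minus strand of chromosome 24 from 25544097 to 25553148 (9052 bases), again without an overlapping gene. Of its 2 annotated transcripts, ENSBTAT00000014585 with 4 exons carried nearly all of the signal, with a median of 2.99 FPKM as deposited. ENSBTAT00000079909, which shares the first 2 exons and ends in a longer last exon, reached 0.01 FPKM in 2 animals and at most 0.0347 FPKM. TTR as measured here was therefore the 4-exon transcript.

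DIO2 was lower in the Lidia bulls than in the Wagyu bulls, and the values of the breeds did not overlap. In Wagyu its rescaled FPKM ranged from 2.29 to 6.19, with a median of 4.06. The La Quinta bulls had 0.435, 1.03, 0.65 and 2.13, and the Montealto bulls had 1.67, 1.01, 1.56 and 0.903. La Quinta bull 1 was the lowest animal of the series, and La Quinta bull 4 stood closest to the Wagyu range. The means were 1.17 ± 0.566 rescaled FPKM (SD, n = 8) in Lidia and 3.95 ± 1.33 (SD, n = 8) in Wagyu. On the scale of log2(rescaled FPKM + 0.1), the difference was -1.73 (SE 0.276), a 3.32-fold lower level in Lidia. Because the gene was chosen on this contrast, its p-value is not given.

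**Figure D1:**
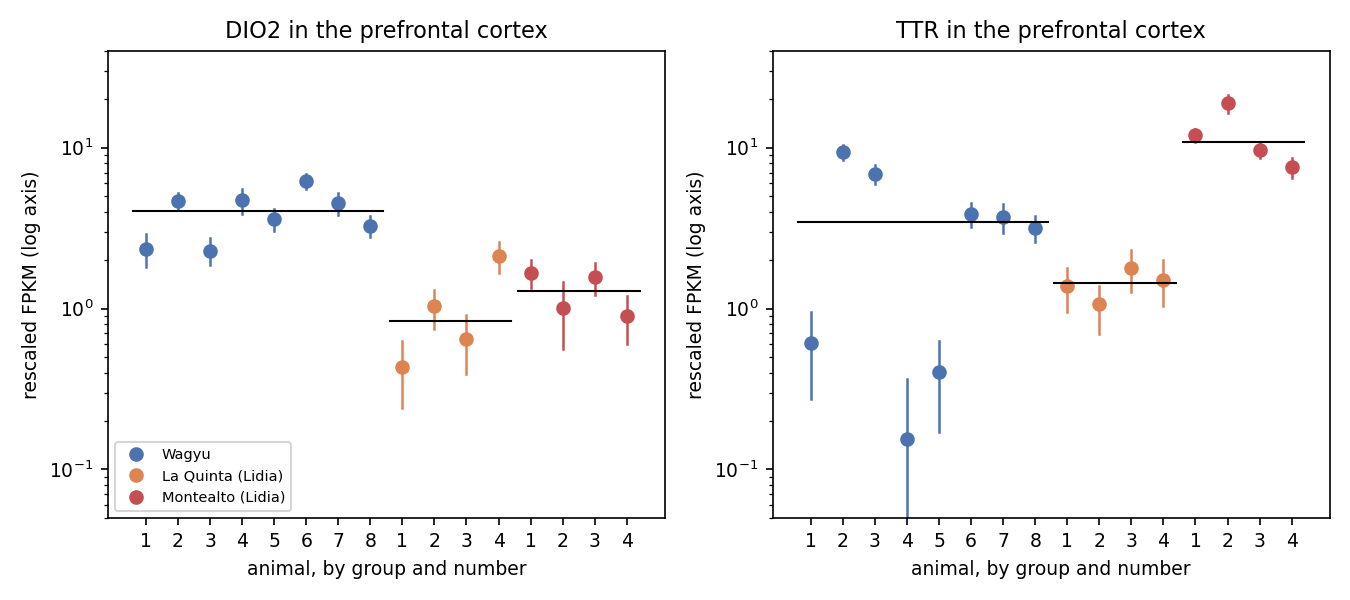
Rescaled FPKM of DIO2 (left) and TTR (right) on a log axis in each of the 16 animals, with the confidence bounds that Cufflinks gave for the main transcript and the group median as a black line. For Wagyu bull 4 the lower TTR bound is 0 and is drawn to the foot of the axis. All 8 Lidia bulls lay below all 8 Wagyu bulls in DIO2, whereas in TTR the farms La Quinta and Montealto lay apart. The Wagyu bulls ranged in TTR from below every La Quinta bull into the Montealto range, with none inside the La Quinta range.

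The 2 Lidia farms were both below Wagyu in DIO2. Against the same 8 Wagyu bulls, which the comparisons share, La Quinta was lower by a log2 difference of -1.94 (SE 0.336) and Montealto by -1.52 (SE 0.336). Across 16587 genes with a mean of at least 0.1 rescaled FPKM, limma called 826 genes between breeds (4.98%) at an adjusted p of 0.05 and an absolute log2 fold change of 0.1, 552 higher and 274 lower in Lidia, and 206 genes without Wagyu bull 4 and La Quinta bull 4. DIO2 was among the 274 lower genes (1.65% of those tested), and TTR was not called. The values of the breeds did not overlap, with Lidia lower, in 53 genes (0.32%), DIO2 among them. As both were chosen with this contrast known, nothing is read from these counts.

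The gap between the breeds in DIO2 was narrow at its edge. The highest Lidia value, 2.13 in La Quinta bull 4, had Cufflinks bounds of 1.66 and 2.60 after rescaling, and the lowest Wagyu value, 2.29 in Wagyu bull 3, had bounds of 1.86 and 2.73. These intervals overlapped, so the order of those animals was not resolved at this depth. La Quinta bull 4 was also the Lidia library with the fewest fragments, about 52.3 of which were estimated to fall on DIO2. The remaining 7 Lidia bulls reached at most 1.67, and without Wagyu bull 4 and La Quinta bull 4 the log2 difference was -1.82. The counts behind the lowest values were small, with about 12.7 fragments in La Quinta bull 1 and 16.4 in La Quinta bull 3, and bounds of 0.241 to 0.63 rescaled FPKM in the former. Montealto bull 2, at 1.01, rested on about 12.6 fragments.

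Rescaling decided whether the breeds separated in DIO2, but not the size of the difference. In FPKM as deposited, La Quinta bull 4 had 3.76 and stood above 5 of the 8 Wagyu bulls, the lowest of which was at 1.60, while Wagyu bull 4 reached 10.3. Montealto bull 1, at 1.79, also stood above that lowest animal, Wagyu bull 1. After rescaling Montealto bull 1 was at 1.67 and Wagyu bull 1 at 2.36. As deposited, the log2 difference was -1.77 (SE 0.392). On that scale limma called 0 genes between breeds, with 1022 genes at an unadjusted p under 0.05, and 3494 after rescaling. With upper-quartile factors in place of the median of ratios the breeds again did not overlap, and the log2 difference was -1.71.

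**Figure D2:**
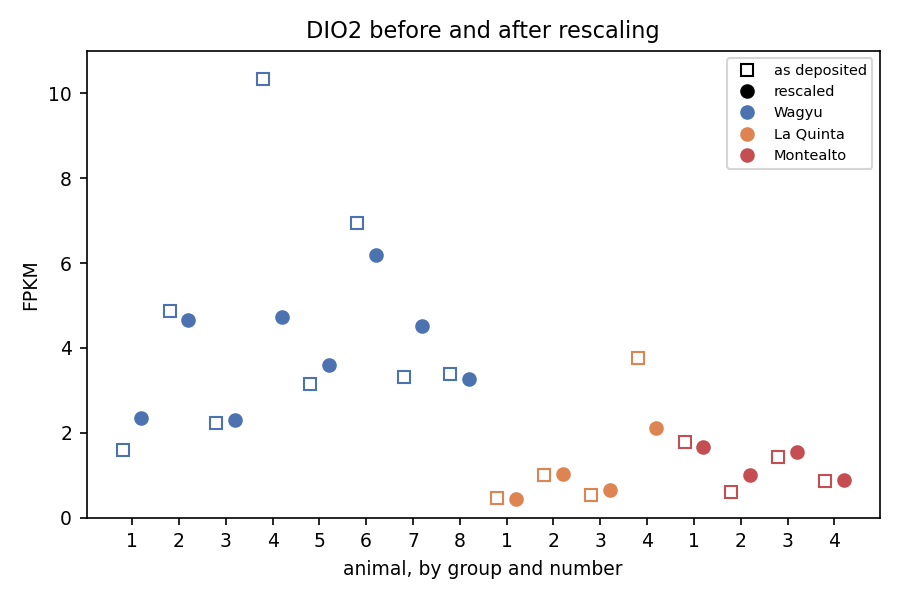
FPKM of DIO2 in each animal as deposited (open squares) and after division by the animal's scaling factor (filled circles), on a linear axis from 0. Wagyu bull 4 moved from 10.3 to 4.72 and La Quinta bull 4 from 3.76 to 2.13, which took the latter below every Wagyu bull. Montealto bull 1 (1.79 to 1.67) was above Wagyu bull 1 (1.60 to 2.36) as deposited and below it after rescaling.

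Within the Lidia breed, the difference in DIO2 between farms was within the spread of the bulls. La Quinta had 1.06 ± 0.752 rescaled FPKM (SD, n = 4) and Montealto had 1.29 ± 0.385 (SD, n = 4), and their ranges overlapped. The log2 difference La Quinta minus Montealto was -0.42 (SE 0.388, limma adjusted p = 0.862), and the exact two-sided permutation test of 4 against 4 bulls gave p = 0.457. The La Quinta bulls spanned a 4.89-fold range and the Montealto bulls a 1.85-fold range. The SD in La Quinta on the log2 scale, 0.885, was above that of 95.3% of the genes tested, whose median SD there was 0.211. Without La Quinta bull 4 the La Quinta range was 2.37-fold, the SD was 0.541, above 90.3% of genes, and the farm difference was -0.81 (limma adjusted p = 0.955). The values by farm were among the results known when DIO2 was chosen, so these farm tests are not independent evidence.

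TTR showed another pattern, in which the 2 Lidia farms lay apart while the breeds overlapped. The La Quinta bulls had 1.38, 1.06, 1.79 and 1.51 rescaled FPKM, within a 1.69-fold range. The Montealto bulls had 11.9, 18.9, 9.72 and 7.58. Every Montealto bull was above every La Quinta bull, on the deposited, the rescaled and the upper-quartile scale. In the 8 Wagyu bulls, numbered 1 to 8, TTR was at 0.61, 9.45, 6.87, 0.155, 0.401, 3.86, 3.70 and 3.17 rescaled FPKM. The Wagyu bulls thus spanned a 23.6-fold range without bull 4, with 3 animals of the 8 below the lowest Lidia bull, and 5 above every La Quinta bull. The low Wagyu values rested on about 9.6, 2.06 and 8.91 fragments in bulls 1, 4 and 5, against 287 in bull 2, and the Cufflinks bounds of bull 4 reached from 0 to 0.365.

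The means of TTR were 6.74 ± 6.52 rescaled FPKM (SD, n = 8) in Lidia and 3.53 ± 3.30 (SD, n = 8) in Wagyu. The log2 difference between breeds was 1.03 with an SE of 0.812, and 0.80 (SE 0.781) without Wagyu bull 4 and La Quinta bull 4, and the ranges overlapped. Against the shared Wagyu bulls, La Quinta was at -0.43 and Montealto at 2.49 (SE 0.804 each). The order of the medians was Montealto (10.8), Wagyu (3.44) and La Quinta (1.44). Neighbours in this order overlapped, since Wagyu bull 2 exceeded Montealto bull 4 and the La Quinta bulls lay inside the Wagyu range.

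The farm difference in TTR was -2.92 on the log2 scale (La Quinta minus Montealto), a 7.58-fold higher level in Montealto. The exact two-sided permutation test of 4 against 4 bulls gave p = 0.0286, the smallest p that this design allows. In the limma fit with 3 groups and 16 animals, in which the wide Wagyu spread enters the error, the SE was 0.928 and the adjusted p was 0.697. That fit called 15 of 16587 genes between farms (0.0904%), TTR not among them, with 976 genes at an unadjusted p under 0.05. Without the 2 shallowest libraries the difference was -2.95 (limma adjusted p = 0.763). In a limma fit of the 8 Lidia bulls alone the SE was 0.278 and the adjusted p was 0.00976, and TTR was 1 of 7 genes called. Values did not overlap between the farms, with La Quinta lower, in 291 genes (1.75%). The values by farm were among the results known when TTR was chosen, so these tests are not independent evidence.

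TTR was among the most variable genes inside Wagyu but not inside either Lidia farm. Its SD within Wagyu was 1.92 on the log2 scale, above that of 98.3% of genes, whose median SD was 0.261, and without bull 4 it was 1.60, above 98.2%. Within La Quinta it was 0.294 and within Montealto 0.554, above 67.8% and 75.1% of genes. Between farms, 33 of the 16587 genes had a larger absolute log2 difference than TTR, and 2442 had a larger one than DIO2. The median absolute difference between farms was 0.16 over all genes.

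No relation between DIO2 and TTR across animals passed its test within either breed. In the 8 Lidia bulls Pearson's r was 0.32 (exact permutation p = 0.442, adjusted 0.589) and Spearman's rho was 0.21 (exact permutation p = 0.619, adjusted 0.825). In the 8 Wagyu bulls r was 0.058 (exact permutation p = 0.886, adjusted 0.886) and rho was -0.024 (exact permutation p = 0.977, adjusted 0.977). Without the 2 bulls farthest from the median of DIO2, r was 0.52 in Lidia and 0.21 in Wagyu (n = 6 each). Without La Quinta bull 4 alone r in Lidia was 0.65 (exact permutation p = 0.131), and without Wagyu bull 4 r in Wagyu was 0.30 (exact permutation p = 0.503). Adjustment was over 4 relations, of which the other 2 involve HR.

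Few other genes of the thyroid hormone pathway could be followed, because symbols were known only for genes the study had listed as different between breeds. Of 67 genes in lists of deiodinases, binding proteins, transporters, receptors, targets, thyroidal synthesis, turnover of the DIO2 protein, selenoproteins, selenocysteine insertion and retinol partners of transthyretin, 9 carried a symbol, DIO2 and TTR included, and all 9 passed the filter on low values. The lists are therefore selected on these samples and are not independent evidence of direction. For the same reason the p-values between breeds given below for these genes are not independent evidence of a difference. Over the 9 genes limma called 1 higher and 2 lower in Lidia and 6 not, against 3.33% called higher and 1.65% called lower over all genes. No gene of the 9 was called between farms. No gene of the lists on the turnover of the DIO2 protein or on selenocysteine insertion carried a symbol.

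HR, which encodes a corepressor that binds the thyroid hormone receptors and is itself induced by triiodothyronine in brain, was the gene called higher. Its rescaled FPKM ranged from 0.788 to 1.32 in Wagyu (median 1.01) and from 1.64 to 3.66 in Lidia (median 2.03), without overlap, as in 64 genes with Lidia higher (0.386%). The log2 difference was 1.03 (SE 0.145, limma adjusted p = 0.00205), a 2.05-fold higher level in Lidia. HR could be named only because the study listed it as higher in Lidia, so its p-values between breeds are not independent evidence. La Quinta bull 4, the Lidia bull with the most DIO2, also had the most HR, and without that bull and Wagyu bull 4 the difference was 0.88 (limma adjusted p = 0.00399). In FPKM as deposited it was 1.00 (limma adjusted p = 0.183), so the call rested on the rescaling. Between farms the log2 difference was 0.19 (SE 0.206, limma adjusted p = 0.879).

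On the rescaled values every Lidia bull thus had less DIO2 and more HR than any Wagyu bull, while within a breed no relation between the genes passed its test. In Lidia r was 0.57 (exact permutation p = 0.142, adjusted 0.567) and rho was 0.48 (exact permutation p = 0.243, adjusted 0.825). Without La Quinta bulls 1 and 4, the farthest from the median of DIO2, r was 0.061 (n = 6), so that the value in Lidia rested on them. In Wagyu r was 0.37 (exact permutation p = 0.366, adjusted 0.589) and rho was 0.33 (exact permutation p = 0.428, adjusted 0.825), and r was 0.43 without Wagyu bulls 1 and 3. HR was paired with DIO2 after its values had been seen.

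Among carriers, SLCO2B1, an organic anion transporter that can take up thyroid hormone, had 2.09 to 3.86 rescaled FPKM in Lidia (median 2.78) and 1.09 to 3.44 in Wagyu (median 1.79). Its log2 difference of 0.57 (SE 0.193) did not pass the test (limma adjusted p = 0.0975, and 0.164 without the 2 shallowest libraries). STRA6, the membrane receptor for the retinol-binding protein that transthyretin carries, differed by 0.89 (SE 0.255, limma adjusted p = 0.054), and by 0.83 (limma adjusted p = 0.152) without those libraries. SLC5A5, the sodium iodide symporter that brings iodide into the thyroid, was near 0 in Wagyu, between 0.0131 and 0.224 rescaled FPKM. In Lidia it ranged from 0.0192 to 2.05 and was lowest in Montealto bull 2 and highest in Montealto bull 1. Its log2 difference of 1.94 (SE 0.555) had a limma adjusted p of 0.0531, and without those libraries it was 1.69 (limma adjusted p = 0.155).

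DIO2 is a selenoprotein, and 4 of the 24 selenoprotein genes listed carried a symbol. DIO2 and GPX3, the secreted glutathione peroxidase, were the 2 called lower. All 4 were named because the study listed them as different between breeds, so the p-values below are not independent evidence. GPX3 ranged from 7.72 to 15.0 rescaled FPKM in Lidia (median 10.4) and from 14.1 to 27.0 in Wagyu (median 20.2), and La Quinta bull 1 alone reached into the Wagyu range. Its log2 difference was -0.87 (SE 0.149, limma adjusted p = 0.00591), -0.91 as deposited (limma adjusted p = 0.238), and -0.81 without the 2 shallowest libraries (limma adjusted p = 0.0298). SELENOM and SELENOO, a selenoprotein of the endoplasmic reticulum and one of mitochondria, differed by 0.54 (limma adjusted p = 0.115) and 0.55 (limma adjusted p = 0.253). The median of the 4 log2 differences was -0.17, beside -0.015 over all genes.

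**Figure D3:**
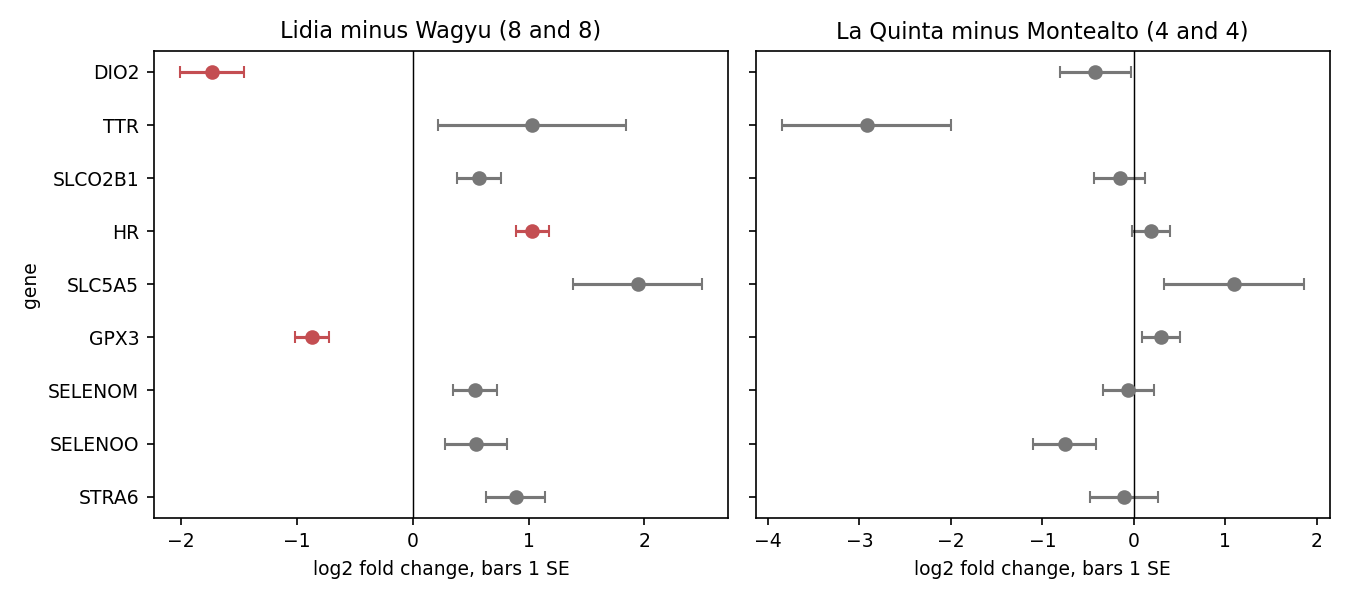
Log2 fold change with 1 SE for the 9 thyroid hormone genes with a symbol, from the limma fit between breeds (left, Lidia minus Wagyu) and from the 3-group fit between farms (right, La Quinta minus Montealto). Genes called are red and the others grey; DIO2 at -1.73, HR at 1.03 and GPX3 at -0.87 were called between breeds and none between farms, where TTR at -2.92 had the largest difference and the widest error.

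The tissue was compared with markers of the cells that make these proteins. In bulk tissue, fewer cells of a type and less RNA per cell cannot be told apart. Of 11 astrocyte markers, 6 carried a symbol (GFAP, AQP4, GJA1, FGFR3, MLC1 and HEPACAM), all listed by the study as higher in Lidia. That listing fixed their direction, so they are not independent evidence of it. Limma called 3 of the 6 higher and none lower, against 3.33% and 1.65% of all genes, with a median log2 difference of 0.59, beside -0.015 over all genes. Their summed level was 344 to 522 rescaled FPKM in Lidia (median 432) and 208 to 526 in Wagyu (median 275). The sum of 526 was that of Wagyu bull 2, and the other Wagyu bulls had at most 309, below every Lidia bull. The part of astrocyte content in the DIO2 values was not tested.

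For TTR the choroid plexus epithelium and the adjoining meninges were examined. Of 10 choroid plexus markers only KRT8, a keratin of many epithelia, carried a symbol, so the epithelium itself could not be scored. KRT8 was listed at 0 in 5 of the 8 Wagyu bulls and was highest, at 3.33 rescaled FPKM, in Montealto bull 1. Wagyu bulls 2 and 3, which had the most TTR of their breed, were also the Wagyu bulls with the most KRT8, at 0.164 and 1.01. Within Lidia the order was different, with 1.27 to 1.48 in La Quinta bulls 2 to 4, where TTR was low, and 0.105 in Montealto bull 2, where rescaled TTR was highest. In FPKM as deposited TTR was highest in Montealto bull 1, the bull with the most KRT8, at 12.8 against 11.6 in Montealto bull 2.

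The 10 of 12 meningeal fibroblast markers with a symbol showed the same arrangement. Their summed level was 16.1 to 101 rescaled FPKM in Lidia (median 40.6) and 7.65 to 30.5 in Wagyu (median 9.76). All 10 were listed by the study as higher in Lidia, and limma called 5 of them higher, against 3.33% of all genes. Wagyu bulls 2 and 3 had 30.5 and 28.4, against at most 11.8 in the other 6. In La Quinta the sum was 17.9, 54.1, 74.4 and 66.3, and in Montealto it was 101, 16.1, 23.1 and 27.2. The farm medians were 60.2 in La Quinta and 25.1 in Montealto, the reverse of their order in TTR. Whether choroid plexus or meningeal tissue contributed to the TTR values was not tested.

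Other marker sums had the order of TTR between farms, or medians that differed between breeds while the ranges overlapped. The 4 of 8 oligodendrocyte markers with a symbol (CNP, OPALIN, ERMN and UGT8) summed to 67.8 to 105 rescaled FPKM in La Quinta (median 75.2) and 98.7 to 221 in Montealto (median 104), the order of TTR. Their median farm difference was -0.56 on the log2 scale, beside -0.0098 over all genes. None was called between farms, against 0.0904% of all genes. Within Wagyu the order was different. The sum was 163 and 89.5 in bulls 1 and 5, where TTR was low, and 60.5 and 60.9 in bulls 2 and 3, where TTR was highest. OPALIN, a protein of myelinating oligodendrocytes, did not overlap between farms, with 5.74 to 9.27 in La Quinta and 11.3 to 20.4 in Montealto. The same held for 291 genes with La Quinta lower (1.75%). CNP, ERMN and UGT8 overlapped between farms. The astrocyte sum also had the order of TTR in its farm medians, 395 in La Quinta and 477 in Montealto, with overlapping ranges. Within Wagyu it was highest in bull 2 (526), which had the most TTR of its breed. Bull 1 (309), where TTR was low, had more than bull 3 (287). The farm medians were 227 in La Quinta and 234 in Montealto for neuron markers, and 36.1 and 34.5 for endothelial markers. The sum of 5 neuron markers was 198 to 296 in Lidia and 241 to 387 in Wagyu. None of the 5 was called between breeds, against 1.65% of all genes called lower and 3.33% called higher. That of 5 endothelial markers was 28.1 to 111 in Lidia and 14.9 to 33.8 in Wagyu. Limma called 3 of these 5 higher in Lidia, against the same 3.33% of all genes. The sum of 111 was that of Montealto bull 2, and the other Lidia bulls had at most 39.8. The sum of 33.8 was that of Wagyu bull 2, and the other Wagyu bulls had at most 27.2, below every Lidia bull. All of these genes were listed by the study, the neuron markers as lower and the others as higher in Lidia. Their part in the DIO2 and TTR values was not tested.

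**Figure D4:**
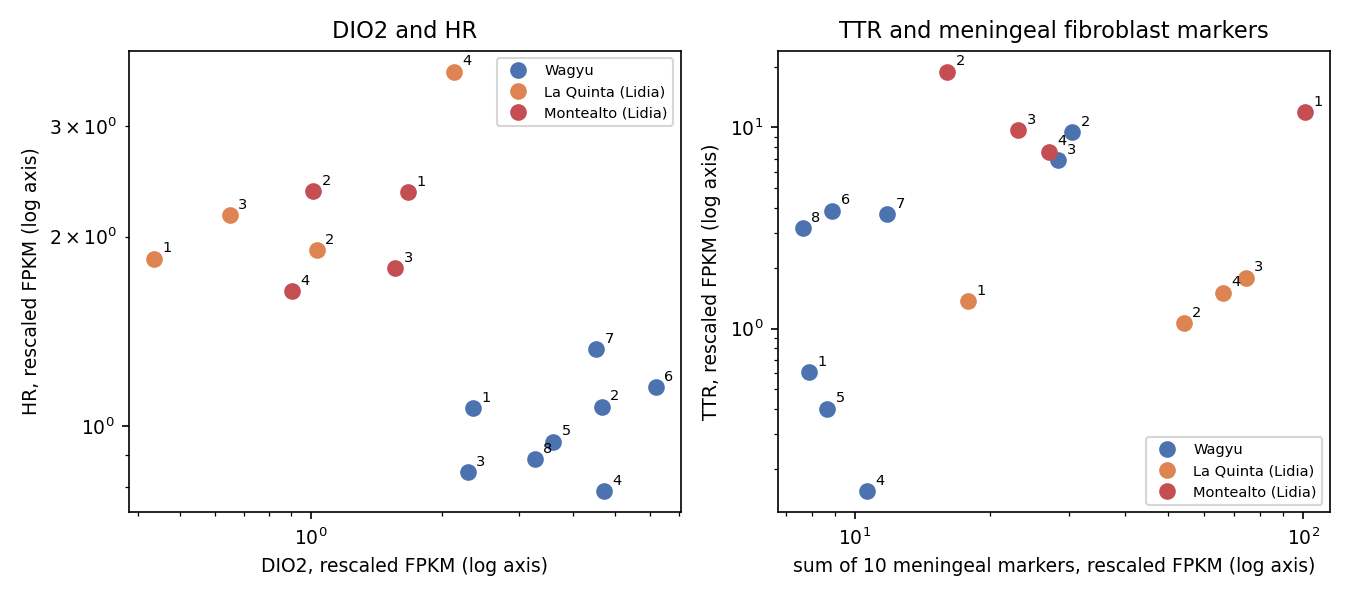
Rescaled FPKM on log axes for each animal, with its number beside the point, of HR against DIO2 (left) and of TTR against the sum of 10 meningeal fibroblast markers (right). On the left the Lidia bulls sit above and to the left of all Wagyu bulls. On the right Montealto bull 2 has the highest TTR (18.9) with a marker sum of 16.1, and La Quinta bulls 2 to 4 have low TTR with sums of 54.1 to 74.4. As deposited, TTR was highest in Montealto bull 1, which has a sum of 101.

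Genes with a symbol whose values followed DIO2 most closely were sought over the 16 animals after subtraction of each breed's mean. The 5 highest were SLC1A4, a neutral amino acid transporter (r = 0.68), TNFRSF10D, a decoy death receptor (0.68), NOTCH2 (0.68), SLC7A2, a cationic amino acid transporter (0.67), and F2R, the thrombin receptor (0.66). Within Lidia r was 0.82 for SLC1A4 and 0.58 for SLC7A2, and within Wagyu 0.53 and 0.82. Between breeds most of them went the other way from DIO2 (-1.73). The log2 difference was 0.52 in SLC1A4, 0.57 in TNFRSF10D, 0.64 in NOTCH2 and 0.95 in SLC7A2, and only F2R was lower in Lidia (-0.58). The study's list, the source of all symbols, held more genes higher than lower in Lidia. The limma calls over all genes also leaned that way, with 552 higher and 274 lower. The direction of these 5 genes is therefore not read as a trait of genes that follow DIO2. Among all 16586 other genes they ranked 135, 136, 139, 162 and 205 in likeness to DIO2, so that many genes without a symbol followed it more closely, up to an r of 0.86.

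For TTR the 5 were INHBB, a subunit of activin and inhibin (r = 0.82), SLC5A6, a vitamin transporter (0.77), PLEKHO2 (0.76), RAB7B, a small GTPase of endosomes (0.75), and SPRY1, an inhibitor of growth factor signaling (0.74). INHBB was the most like TTR of all genes tested and SLC5A6 the third. INHBB spanned 0.746 to 1.17 rescaled FPKM in Montealto, 0.583 to 0.754 in La Quinta and 0.257 to 0.611 in Wagyu, so its farms overlapped where those of TTR did not. These values are descriptions over 16 animals that share libraries and scaling factors, and the genes with a symbol were all listed by the study as different between breeds.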

How the data were processed

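The authors sequenced stranded polyadenylated RNA from a PFC sample of each bull (8 Lidia, 8 Wagyu) as paired reads, trimmed them with PRINSEQ, aligned them with STAR 2.7.3a to ARS-UCD 1.2 with the Ensembl annotation, sorted them with SAMtools 0.1.18 and quantified transcripts per animal with Cufflinks 2.2.1. The deposited values are FPKM per transcript with confidence bounds and coverage, and no read counts, so count tests were not used. The bounds cover the uncertainty of the estimate within a library, not between animals. FPKM are relative to each library's own total, of which 37 mitochondrial genes held 17.8 to 39.3% of the summed FPKM.

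Transcript FPKM were summed per gene and divided by the median-of-ratios factor over the 15998 genes above 0 in all animals. Fragments were estimated as coverage times exon length over the 200 bases of a read pair. Genes with a mean of at least 0.1 were fitted as log2(value + 0.1) with limma 3.58.1 (R 4.3.3, lmFit and eBayes with a variance trend, Benjamini-Hochberg adjustment), which understates changes of low genes. Permutation tests were exact and two-sided (Python 3.11.15, numpy 2.4.6): 70 splits between farms and 40320 pairings for correlations. The limma fits between breeds and between farms were tested on simulated data.

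Breed came from the labels and farm from the study's supplementary sample list, joined by animal name. Wagyu bulls are numbered in deposition order. Symbols came from the study's list of different genes, 1050 of 1197 entries being paired with a gene by chromosome, start and end (1000 genes). The fold changes and p-values in that list were not used. Named genes were DIO2, TTR, every gene of the thyroid lists with a symbol, the 5 genes with a symbol most like each member, and marker genes near 0 or bearing on a member's value. A further astrocyte marker is not reported here and was left out of the sums. The members, lists and tests were chosen with earlier results of these data known. Alternatives were FPKM as deposited, upper-quartile factors, pseudocounts of 1 and 0.01, a mean of at least 1 FPKM, no filter, no variance trend, the Lidia bulls alone, and leaving out animals.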

Additional observations from a re-analysis of the deposited data

Results flagged for a closer look

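The difference in TTR between the Lidia farms, -2.92 on the log2 scale (La Quinta minus Montealto), gave an exact permutation p of 0.0286 for 4 against 4 bulls, the smallest this design allows. That p is not adjusted over the 9 thyroid hormone genes compared, and TTR was chosen with its values by farm known, so it is no independent evidence. In the limma fit with 3 groups the adjusted p was 0.697.

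An animal far from the rest of its group by Dixon's test was looked for in 36 groups (9 genes in Lidia, Wagyu and each Lidia farm), and 8 were found. Chance alone would give about 1 in 20 in separate groups, but each farm lies within Lidia and the FPKM were not log-transformed. Whether 8 is more than chance gives was therefore not tested. None of the 8 was in DIO2 or TTR. Montealto bull 2 was high in SELENOO (29.4 rescaled FPKM) among the Lidia bulls and in SELENOM (25.5) among both the Lidia and the Montealto bulls. Montealto bull 1 was high in SLCO2B1 (3.86) and STRA6 (5.04) among the Lidia bulls and in SLC5A5 (2.05) among the Montealto bulls. La Quinta bull 4 was high in HR (3.66) among the Lidia bulls, and Wagyu bull 1 in SELENOO (8.23) among the Wagyu bulls.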

How the results depend on the processing

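The log2 difference between breeds kept its sign under all 25 alternatives in DIO2 (-1.87 to -1.18, the latter with a pseudocount of 1) and in TTR (0.60 to 1.35), and over the 16 fits that left out 1 animal it was -1.87 to -1.57 and 0.60 to 1.35. Calls between breeds numbered 826, 0 on FPKM as deposited (1022 genes at an unadjusted p under 0.05), and 363 to 1426 without 1 animal, the extremes being without Wagyu bulls 8 and 2. They numbered 167 without Wagyu bull 5 and La Quinta bull 4, a fit that took bull 5 for the shallow library by mistake, and 206 without Wagyu bull 4 and La Quinta bull 4, the shallowest libraries, an alternative chosen after seeing the data. Calls between farms numbered 15 (9 higher, 6 lower in La Quinta), 6 as deposited (5 higher, 1 lower), 8 with a mean of at least 1 FPKM, 8 without the shallowest libraries, 7 in Lidia bulls alone (2 higher, 5 lower), and 6 to 14 without 1 animal. The farm difference in DIO2 was -0.81 to -0.12 and in TTR -3.11 to -2.68 without 1 animal, and neither was called (limma adjusted p from 0.737 to 0.959 and from 0.462 to 0.955). In the Lidia bulls alone TTR at -2.92 was called (limma adjusted p = 0.00976). The values by farm were known when DIO2 and TTR were chosen, so none of these farm tests is independent evidence. As deposited, the median of all genes between farms moved to 0.32, and relative to it DIO2 was at -0.41. The relation of DIO2 and TTR within Lidia was 0.096 to 0.65 without 1 bull. Within Wagyu it was -0.14 to 0.35 and turned negative without bull 1 (-0.14), bull 2 (-0.069) or bull 6 (-0.074). The cause of these changes was not tested. HR and GPX3 lost their calls as deposited and under no other alternative run. SLCO2B1, SLC5A5 and STRA6 were called in 1, 3 and 4 alternatives, each of which left out 1 animal, and SLC5A5 did not reach a mean of 1 FPKM. No paired analysis was possible because the labels tie no Lidia bull to a Wagyu bull, and the replicate numbers used here only follow the order of deposition. Depth limits DIO2 and TTR in the animals with under 20 estimated fragments.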
